A study of Mus musculus with 24 samples.

Results

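Marrow-derived mesenchymal stem cells of the mouse, stromal cells that can be led toward bone or fat, were compared after 7 days in osteogenic medium and before differentiation. The comparison used the 3 vehicle libraries of osteogenic day 7 and the 3 vehicle libraries of undifferentiated day 0, 6 of the 24 RNA-seq libraries of the series, with all genes. The cells came from cryopreserved stocks expanded for at most 10 passages in MEM alpha with fetal bovine serum. Day 0 cells had received no differentiation medium, and day 7 cells had been moved at confluence to medium with 10 mM beta-glycerophosphate and 50 µg/mL ascorbic acid. All 6 cultures had ethanol vehicle for the last 24 hours. The other libraries, with 100 nM 1,25(OH)2D3 (the hormonal form of vitamin D), on osteogenic day 15 or on adipogenic day 7, serve below only as side values. The labels name neither strain nor age of the donor mice and do not say that replicates were separate cultures, so p-values measure the spread between these libraries. As no undifferentiated library is older than day 0, medium and time in culture cannot be told apart.

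Osteoblasts build bone by secreting a matrix rich in type I collagen and then mineralizing it. Ascorbic acid is the cofactor of the hydroxylases that stabilize the collagen triple helix, and beta-glycerophosphate is a phosphate source that alkaline phosphatase can release. Cells moving down this lineage are known to pass from Runx2 and Sp7 expression through collagen secretion to osteocalcin, bone sialoprotein and, in embedded osteocytes, Dmp1 and Phex.

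Values are RPKM (reads scaled to transcript length and to the mapped reads of the library) of each library, or the mean ± SD of 3 libraries. Differences are taken as log2(RPKM + 1), a scale that shrinks the changes of genes with low values. The words rose and fell are kept for genes that passed limma at an adjusted p below 0.05. The day 0 vehicle libraries were shallower, with an estimated 7.09 to 9.68 M reads against 11.39 to 40.02 M on day 7. They also showed reads over the receptor genes for smell, pheromones and taste, families that are normally silent outside sensory tissue: the median of these 1494 genes was 3.51 to 4.95 RPKM at day 0 and 0.208 to 0.408 RPKM on day 7. Of 1472 such genes tested, 1449 fell and 0 rose. Among all 21097 genes tested 2874 rose, 13.6% of them, and 10636 fell, 50.4%. The higher share of the calls was 21.3%, and it was 43.4% with median-ratio rescaling, 59.2% with quantile normalization and 85.7% after subtraction of the receptor-gene median, settings that moved the median of all genes by 0.39, 0.55 and 1.14 log2. Low genes are therefore read here only with this signal beside them. Their reading rests on 2 aids: the 99th percentile of the receptor genes at day 0, 12.51 RPKM, and the only day 0 library with a low receptor median (0.457 RPKM), which was treated with 1,25(OH)2D3 and is called the low-background day 0 library. That library differs from the day 0 vehicle libraries in hormone as well as in receptor signal. Which of these accounts for a difference from it was not tested. Values of all 3 treated day 0 libraries are therefore given beside it for some genes.

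Among the 3503 genes that averaged 20 RPKM or more over all 24 libraries, the balance was the opposite: 1536 rose (43.8%), 405 fell (11.6%), together 55.4%, and 1562 did not pass. This average covers all groups, so a gene high only at day 0 can miss it. Isg15, with 37.9 RPKM at day 0, averaged 13.1 RPKM and was left out. A gene abundant only in adipogenic cells can pass with low values in the 6 libraries. The balance therefore holds for this filter only. Their median difference was 0.21 log2, so small rises among abundant genes are close to the general shift. A change of 2-fold or more on this scale was found for 112 rises and 93 falls. The day 0 and day 7 libraries did not overlap for 2084 of the 3503 genes, and for 14043 of all 21097 tested. In the libraries treated with 1,25(OH)2D3, 1413 of the 1536 rises and 375 of the 405 falls had the same sign. Over all tested genes this held for 2685 of the 2874 rises and 10051 of the 10636 falls. It also held for 1445 of the 1449 falls of receptor genes, so the same sign does not set a gene apart from the receptor signal. Abundant members of a gene list are those that averaged 20 RPKM or more. Counts over all tested members of a list stand against 13.6% of rises and 50.4% of falls over all genes, and counts over abundant members against 43.8% and 11.6%. Any gene named outside the rule in the processing notes completes a count or is marked as such, and was chosen after its values were seen.

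**Figure D1:**
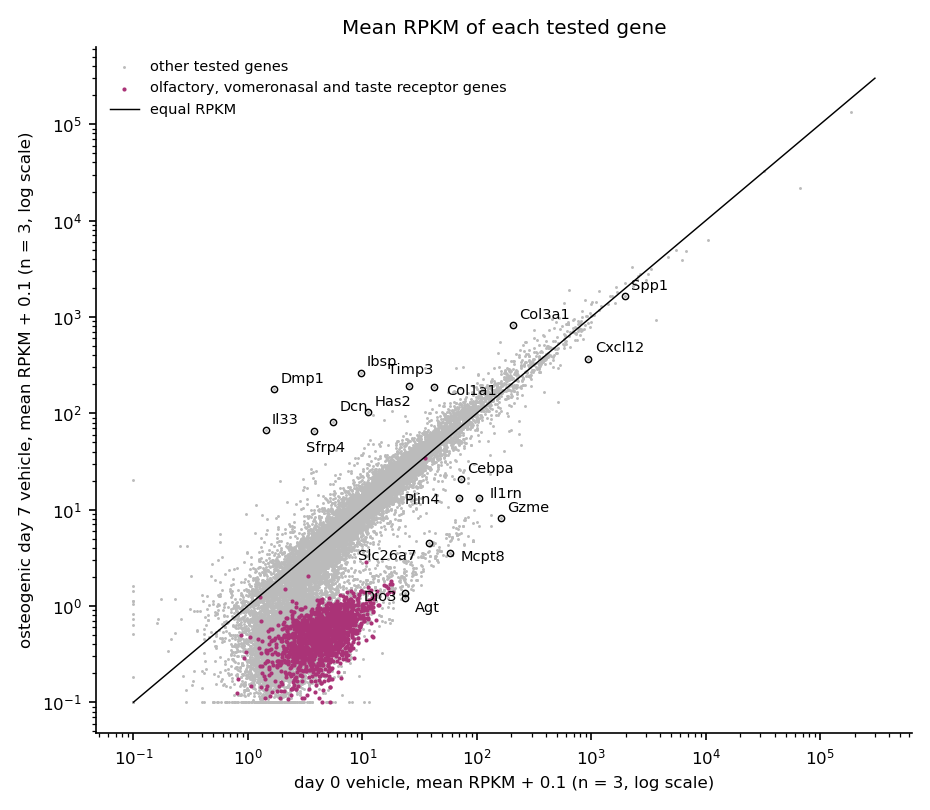
Mean RPKM of each of the 21097 tested genes in the 3 day 0 vehicle libraries (x axis) and the 3 osteogenic day 7 vehicle libraries (y axis), both on log axes with 0.1 added; the line marks equal values and purple points are the receptor genes. The receptor genes lie below the line in a cloud of low values, while Dmp1, Il33, Ibsp and Sfrp4 stand far above it and Gzme, Il1rn and Cebpa below it at levels above the cloud.

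Dmp1 and Ibsp, genes of the mineralizing bone matrix, were among the 3 largest of the named rises, with the cytokine gene Il33 described further on. Dmp1, an acidic phosphoprotein of mineralizing osteocytes, had 1.15, 1.68 and 1.93 RPKM at day 0 and 169.9, 175 and 189 RPKM on day 7. It went from the level of the receptor genes to the level of the collagens, without overlap, a difference of 6.12 ± 0.17 (SE, adjusted p = 1.52e-16). Ibsp, the bone sialoprotein that nucleates mineral, had 9.95, 9.73 and 8.97 RPKM at day 0 and 278, 256 and 258 RPKM on day 7. Here too every day 7 library lay far above every day 0 library, and the difference was 4.65 ± 0.10 (SE, adjusted p = 1.9e-18). In the low-background day 0 library Dmp1 stood at 1.07 and Ibsp at 1.42 RPKM. The pair differed later: on osteogenic day 15 Dmp1 was down to 41.1 ± 5.64 while Ibsp reached 596 ± 40.1 RPKM, and in adipogenic cells Dmp1 stayed at 1.82 ± 0.374 while Ibsp had 104 ± 7.89 RPKM.

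Phex, the membrane endopeptidase that restrains phosphate-wasting signals, had 4.12, 3.73 and 2.53 RPKM at day 0 and 23.9, 30.6 and 23.8 RPKM on day 7. All day 7 libraries were higher, by 2.61 ± 0.17 (SE, adjusted p = 2.21e-10). The osteocalcin genes Bglap and Bglap2 encode nearly identical proteins, and how the authors split reads between them is not known. Bglap had 5.69, 5.14 and 2.94 RPKM at day 0 and 26.9, 29.2 and 32.2 RPKM on day 7, and Bglap2 rose from 3.44 ± 1.23 to 23.6 ± 3.37 RPKM. The groups of neither gene overlapped, and both osteocalcins stayed far below Ibsp on day 7. Alpl, the alkaline phosphatase that frees phosphate, rose from 5.44 ± 0.992 to 18.1 ± 2.92 RPKM.

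Of 21 tested genes of mineralized matrix and its regulators, 14 rose and 3 fell, where 13.6% of all genes rose and 50.4% fell, with a median of 0.62 against -0.46 for all genes. Among the 9 abundant members 5 rose and 3 fell (43.8% and 11.6% of all abundant genes), with a median of 0.41. Sparc, the collagen-binding osteonectin, was already abundant at day 0, with 574, 562 and 593 RPKM, and had 1331, 1383 and 1457 RPKM on day 7. The phosphate importer Slc20a1 rose from 57.2 ± 4.26 to 102 ± 3.96 RPKM. The 3 members that fell were Spp1, Mgp and Omd. Spp1 (osteopontin) had 2032, 1815 and 2067 RPKM at day 0 and 1609.9, 1967 and 1388 RPKM on day 7. Its groups overlapped, and the fall of -0.26 ± 0.10 (SE, adjusted p = 0.0239) turned into a rise of 0.17 with median-ratio rescaling. The call was lost without any 1 of 4 libraries, with adjusted p = 0.0611 to 0.199. Mgp, an inhibitor of calcification, fell from 459 ± 20.4 to 299 ± 38.9 RPKM, and the keratan sulfate proteoglycan Omd from 64.3 ± 4.10 to 50.3 ± 10.7 RPKM. Omd was higher instead in the treated libraries (1.92 log2) and against the low-background library (2.54), and Mgp did not pass in the treated libraries.

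The lineage regulators stood at lower levels than the matrix genes. Sp7 (osterix), the zinc finger factor that acts downstream of Runx2, had 1.24, 1.13 and 1.29 RPKM at day 0 and 6.72, 9.47 and 9.54 RPKM on day 7. Its day 0 values were below the receptor median, those of day 7 above every day 0 value, and the difference was 2.10 ± 0.17 (SE, adjusted p = 4.6e-09). Runx2 itself had 6.68, 6.18 and 4.29 RPKM at day 0 and 7.61, 7.72 and 7.52 RPKM on day 7. The 3 day 7 values lay above all day 0 values, but the difference of 0.38 ± 0.17 (SE, adjusted p = 0.06) did not pass the test. It passed without day 0 replicate 1 (adjusted p = 0.033). Of 20 osteoblast transcription factors 9 rose and 3 fell, and of the 7 abundant ones 6 rose and 1 fell. Atf4, which drives amino acid supply and osteocalcin transcription, had 70.6, 68.2 and 73.3 RPKM at day 0 and 173, 185 and 191 RPKM on day 7. That is a clear separation, by 1.36 ± 0.08 (SE, adjusted p = 6.87e-11). Mef2c rose from 6.63 ± 0.727 to 16.5 ± 2.16 RPKM and the mesenchymal factor Twist1 from 10.3 ± 1.82 to 18.4 ± 2.54 RPKM.

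The sums of osteoblast and of osteocyte markers were both higher on day 7. The 7 osteoblast markers summed to 64.6 to 76.8 RPKM at day 0 and 507.8 to 564.4 RPKM on day 7, and the 5 osteocyte markers to 15.9 to 16.9 and 229.9 to 253.8 RPKM. On day 7 Ibsp and Col1a1 made up most of the first sum and Dmp1 most of the second. The osteocyte markers Mepe (1.22 ± 0.674 and 1.12 ± 0.463 RPKM) and Sost (0.510 ± 0.0759 and 0.212 ± 0.0934 RPKM) were low at both times, with means no higher on day 7. Chondrocyte markers (6 genes) summed to 7.09 to 10.35 and 9.19 to 10.74 RPKM, and to 3.33 RPKM in the low-background day 0 library. Single members moved in both directions, and 1 of them reached a mean of 5 RPKM on day 7 and 0 at day 0. In bulk RNA, more cells of a type and more RNA per cell cannot be told apart. The labelled cell type was checked as well. Of the 10 marrow stromal markers 6 averaged at least 5 RPKM at day 0: Cxcl12, Pdgfra, Pdgfrb, Vcam1, Ly6a and Cd44, the last below 12.51 RPKM. The day 0 means of all others lay within or below the range of the receptor medians. Among these were Eng (0.662 and 0.564 RPKM at day 0 and day 7) and Thy1 (1.06 and 0.07).

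**Figure D2:**
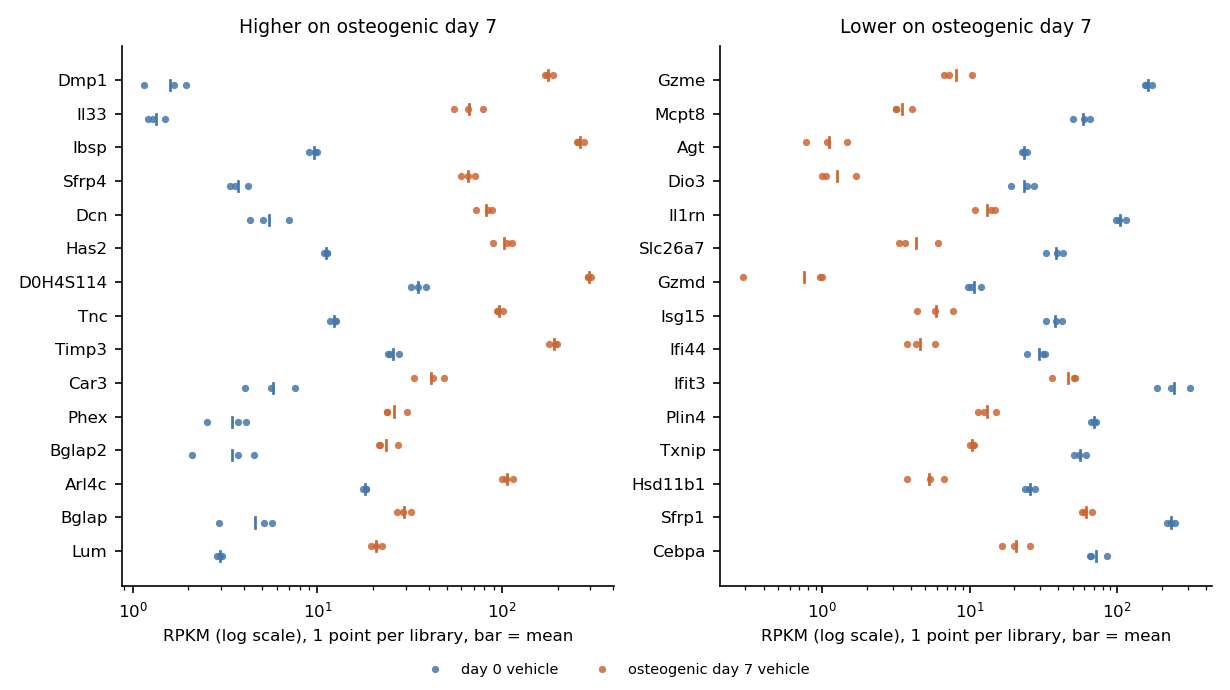
RPKM on a log axis of 15 genes that were higher on osteogenic day 7 (left) and 15 that were lower (right), with 1 point per library and a bar at the mean of 3. For each of the 30 genes the 3 day 0 and 3 day 7 points do not overlap, and Dmp1 shows the widest gap. Absence of overlap was a condition for naming the strongest rises and falls, and held for 14043 of all 21097 tested genes.

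Collagen chains rose broadly. Of 23 tested, 14 rose and 4 fell, and of the 12 abundant chains 10 rose and 0 fell, with a median of 0.93 against 0.21 for all abundant genes. Col1a1, the main chain of bone collagen, had 44.4, 43.2 and 38.8 RPKM at day 0 and 182, 169 and 208 RPKM on day 7. Its partner Col1a2 had 324, 319.9 and 311 RPKM at day 0 and 755, 767 and 669 RPKM on day 7. Both rose without overlap, Col1a1 by 2.12 ± 0.14 (SE, adjusted p = 2.23e-10) and Col1a2 by 1.19 ± 0.09. Col3a1, the fibrillar collagen of young connective tissue, had 211, 196 and 207 RPKM at day 0 and 876, 859.9 and 703 RPKM on day 7. Col8a1, a short-chain network collagen, had 70.5, 64.0 and 62.0 RPKM at day 0 and 314, 295 and 282 RPKM on day 7. These rises, 1.98 and 2.16 log2, were close in size to that of Col1a1. Col1a1, Col3a1 and Col8a1 were lower on day 15 than on day 7, at 104 ± 8.23, 498 ± 14.6 and 161 ± 8.34 RPKM. The 2 abundant chains that did not pass were the basement membrane chain Col4a1 (75.1 ± 2.94 to 84.7 ± 3.11 RPKM) and Col12a1 (73.3 ± 3.36 to 70.7 ± 5.09 RPKM).

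The enzymes that fold and crosslink collagen moved less. Of 28 tested 12 rose and 2 fell, and the 15 abundant members had a median of 0.16, below that of all abundant genes. Plod2, the lysyl hydroxylase that sets crosslinks in the telopeptides, had 22.1, 21.1 and 17.0 RPKM at day 0 and 49.7, 53.0 and 50.0 RPKM on day 7. Its groups were separate, by 1.31 ± 0.10 (SE, adjusted p = 3.22e-09). Lepre1 (now P3h1, a prolyl 3-hydroxylase) rose from 8.14 ± 1.26 to 20.1 ± 2.01 RPKM, the lysyl oxidase relative Loxl4 from 7.74 ± 0.568 to 16.1 ± 0.969 RPKM and the collagen prolyl isomerase Fkbp10 from 34.2 ± 4.40 to 62.1 ± 2.30 RPKM. The most abundant crosslinking enzyme, Lox, had 773 ± 44.4 and 762 ± 74.7 RPKM (adjusted p = 0.853). The ascorbate-dependent prolyl 4-hydroxylase subunit P4ha1 also did not pass, with 111 ± 14.1 and 91.5 ± 4.29 RPKM.

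Proteoglycans split. Dcn (decorin), which coats collagen fibrils, had 5.06, 4.34 and 7.01 RPKM at day 0 and 88.4, 84.3 and 72.3 RPKM on day 7. Lum (lumican), of the same family, had 2.84, 2.97 and 3.04 RPKM at day 0 and 22.3, 20.8 and 19.5 RPKM on day 7. Both were low at day 0 in every library and separate on day 7, Dcn by 3.69 ± 0.18 (SE, adjusted p = 1e-12). Aspn, which competes with decorin for collagen, rose from 22.2 ± 2.96 to 48.0 ± 6.002 RPKM. The most abundant member, Ogn (osteoglycin), had 535, 513 and 498 RPKM at day 0 and 297, 339 and 243 RPKM on day 7. It fell by -0.82 ± 0.14 (SE, adjusted p = 6.52e-05). The low-background day 0 library held 258 RPKM, and against that library the difference was 0.17. The 3 treated day 0 libraries had 267 ± 9.42 RPKM. Of 10 small leucine-rich proteoglycans 3 rose and 6 fell. The median of the 5 abundant ones, -0.25, turned positive with median-ratio rescaling (0.17) and in the treated libraries (1.92).

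Has2, the main hyaluronan synthase of mesenchymal cells, had 10.9, 11.3 and 11.2 RPKM at day 0 and 89.2, 113 and 106 RPKM on day 7. The groups were far apart, by 3.09 ± 0.25 (SE, adjusted p = 8.15e-09), and the low-background day 0 library stood at 1.36 RPKM. Of 11 genes of hyaluronan synthesis, binding and turnover 5 rose and 2 fell, and the falls were of members under 5 RPKM. Tmem2, a cell surface hyaluronidase, had 41.9, 40.5 and 34.5 RPKM at day 0 and 104, 88.0 and 109 RPKM on day 7. The hyaluronan receptor Cd44 rose from 11.4 ± 1.29 to 25.2 ± 2.55 RPKM. 9930013L23Rik, an older symbol of the hyaluronan-degrading Cemip, rose from 4.73 ± 0.202 to 12.7 ± 1.78 RPKM, yet it stood at 29.8 RPKM in the low-background library, above day 7.

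Tnc (tenascin C), a glycoprotein of remodelling matrix, had 12.6, 11.7 and 12.4 RPKM at day 0 and 94.1, 94.6 and 101 RPKM on day 7. Every day 7 value was far above every day 0 value, by 2.88 ± 0.11 (SE, adjusted p = 3.27e-14). Its relative Tnn rose from 6.202 ± 1.03 to 21.1 ± 0.359 RPKM, the microfibril protein Mfap5 from 4.02 ± 0.538 to 14.2 ± 3.27 RPKM, and the CCN family member Wisp1 from 16.5 ± 0.582 to 46.2 ± 2.07 RPKM. Of 27 matricellular and elastic fibre genes 13 rose and 8 fell. Among the 18 abundant ones 9 rose, and the 4 that fell were Postn, Thbs1, Smoc2 and Efemp1. Postn (periostin) went from 261 ± 8.93 to 118 ± 7.87 RPKM, with a difference of 0.18 against the low-background library. The abundant members had a median of 0.11, which became -0.11 with quantile normalization.

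Matrix proteases and their inhibitors rose nearly throughout: of 26 tested 18 rose and 4 fell, and of 14 abundant members 13 rose and 0 fell, with a median of 0.98. Timp3, a metalloproteinase inhibitor that binds to the matrix, had 24.8, 27.8 and 24.2 RPKM at day 0 and 178, 194 and 199 RPKM on day 7. The groups were separate by 2.85 ± 0.09 (SE, adjusted p = 5.44e-16). Htra1, a secreted serine protease, had 15.2, 16.1 and 14.5 RPKM at day 0 and 95.5, 76.4 and 83.3 RPKM on day 7. Serpine2, an inhibitor of thrombin and urokinase, had 25.8, 24.8 and 22.5 RPKM at day 0 and 76.3, 84.0 and 86.0 RPKM on day 7. Each of these was also above the low-background library, at 19.9, 25.6 and 25.3 RPKM. Mmp13, the collagenase of bone, had 13.6, 12.4 and 15.2 RPKM at day 0 and 52.9, 52.9 and 38.2 RPKM on day 7. Among vehicle libraries it rose by 1.72 ± 0.12 (SE, adjusted p = 4.64e-10), whereas the low-background library, treated with 1,25(OH)2D3, had 219 RPKM and reversed the sign to -2.18.

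Sfrp4 and Sfrp1 changed in opposite directions. Sfrp4, a secreted Wnt antagonist, had 4.22, 3.56 and 3.35 RPKM at day 0 and 71.3, 65.1 and 60.05 RPKM on day 7. Sfrp1, of the same family, had 232, 245 and 219 RPKM at day 0 and 59.6, 57.3 and 67.2 RPKM on day 7. The first rose by 3.82 ± 0.12 (SE, adjusted p = 7.34e-16) and the second fell by -1.90 ± 0.09 (SE, adjusted p = 1.71e-12), both without overlap. Sfrp1 was lower still on day 15 (9.62 ± 0.426 RPKM). Against the low-background library (112 RPKM) its difference was -0.86, and the 3 treated day 0 libraries had 112 ± 2.09 RPKM. Lrp4, the receptor that presents sclerostin, had 12.1, 11.5 and 10.4 RPKM at day 0 and 36.5, 32.5 and 37.8 RPKM on day 7. It rose, as its day 7 values exceed those of day 0 throughout (1.57 log2). The Wnt agonist Rspo2 had 74.5, 75.0 and 62.4 RPKM at day 0 and 27.9, 24.7 and 24.0 RPKM on day 7. It fell by -1.43 ± 0.09 (SE, adjusted p = 1.44e-10). Of 31 Wnt genes 11 rose and 10 fell, and of the 7 abundant ones 4 rose and 3 fell. The balance over all members depended on the scaling: with median-ratio rescaling 15 rose and 7 fell, with quantile normalization 16 rose and 5 fell, and after background subtraction 18 rose and 5 fell.

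Among the BMP and TGF-beta genes 16 of 37 rose and 9 fell, and 7 of 9 abundant members rose against 1 that fell. Tgfb2, a ligand, had 13.0, 11.6 and 10.3 RPKM at day 0 and 53.2, 51.3 and 51.9 RPKM on day 7. Bmp3, a ligand that opposes osteogenic BMPs, had 2.01, 3.34 and 3.70 RPKM at day 0 and 15.3, 17.3 and 18.4 RPKM on day 7. Both ligands were higher in each day 7 library, by 2.08 ± 0.10 (SE, adjusted p = 6.45e-13) and 2.19 ± 0.24 (SE, adjusted p = 6.22e-07). Inhba, the activin A subunit, rose from 24.4 ± 1.37 to 53.6 ± 6.47 RPKM. Tgfbi, a matrix protein induced by TGF-beta in many cells, fell from 32.3 ± 1.40 to 13.1 ± 0.983 RPKM. The low-background library had 14.4 RPKM, a difference of -0.13 log2, and the 3 treated day 0 libraries had 13.3 ± 0.961 RPKM. The receptor Tgfbr1 was the abundant member that fell, from 31.3 ± 1.91 to 25.8 ± 1.44 RPKM.

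Of 29 IGF and FGF system genes 9 rose and 9 fell, and of the 10 abundant ones 4 rose and 2 fell. With median-ratio rescaling 17 rose and 6 fell over all members, after background subtraction 15 rose and 5 fell, and in the treated libraries 15 rose and 4 fell. Pdgfa, a mitogen, had 9.14, 11.003 and 6.61 RPKM at day 0 and 29.4, 28.1 and 32.6 RPKM on day 7. It was higher in all day 7 libraries by 1.67 ± 0.17 (SE, adjusted p = 2.68e-07). The receptor Fgfr2 fell from 20.3 ± 1.10 to 7.64 ± 0.609 RPKM, the decoy-like receptor Fgfrl1 from 16.2 ± 0.846 to 7.13 ± 1.37 RPKM and hepatocyte growth factor, Hgf, from 51.4 ± 5.58 to 22.3 ± 3.05 RPKM. Against the low-background library the difference of Hgf was -0.30 instead of -1.17, and the 3 treated day 0 libraries had 26.5 ± 1.17 RPKM. Of 17 genes of osteoclast-directing cytokines and hormone receptors of bone 7 rose and 5 fell, 2 of these falls from above 12.51 RPKM at day 0. Among the 5 abundant ones 2 rose and 2 fell. Tnfrsf11b (osteoprotegerin), the decoy receptor that restrains osteoclasts, had 9.21, 12.5 and 13.8 RPKM at day 0 and 32.9, 30.1 and 31.9 RPKM on day 7. It rose by 1.36 ± 0.16 (SE, adjusted p = 1.3e-06), together with the gp130 partner receptors Osmr (20.7 ± 1.45 to 42.8 ± 1.06 RPKM) and Lifr (39.6 ± 0.871 to 76.0 ± 4.15 RPKM). Ptgs2, the inducible cyclooxygenase, rose from 6.66 ± 0.835 to 13.2 ± 1.42 RPKM.

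Contractile and cytoskeletal genes rose nearly throughout. Of 25 tested 18 rose and 3 fell, and of the 16 abundant ones 15 rose and 0 fell, with a median of 0.51 that stayed above 0 under each rescaling. Tpm1, a tropomyosin that stabilizes actin filaments, had 644, 627 and 632 RPKM at day 0 and 2015, 1602 and 2017 RPKM on day 7. Tagln (SM22), a smooth muscle actin-binding protein, had 55.9, 46.1 and 53.5 RPKM at day 0 and 127, 125.003 and 131 RPKM on day 7. Both groups were separate for both genes, by 1.56 ± 0.08 (SE, adjusted p = 6.7e-12) and 1.29 ± 0.12 (SE, adjusted p = 3.3e-08). Tpm2 rose from 50.2 ± 6.62 to 99.5 ± 4.96 RPKM and Rgs5, a pericyte marker, from 2.52 ± 0.851 to 11.4 ± 2.32 RPKM. Nonmuscle myosin Myh9 was the abundant member that did not pass, at 250.5 ± 14.2 and 229.8 ± 21.7 RPKM. The late smooth muscle genes Myh11 (1.06 ± 0.217 and 0.243 ± 0.0974 RPKM) and Myocd (1.597 ± 0.434 and 0.219 ± 0.143 RPKM) were below the receptor median at day 0. The 7 smooth muscle and pericyte markers summed to 753.8 to 770.4 RPKM at day 0 and 1059 to 1165 RPKM on day 7, mostly Acta2.

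Many actin genes carry a CArG box, the site of serum response factor, near their start. RefSeq promoters (GRCm38.p6, 250 bases before to 50 after the start) were found for 20 genes of the list, and 4 of them (20%) hold a CArG box on either strand, against 1.81% of all 27025 genes with a promoter entry and 0 of 23 interferon-responsive genes. Windows of 3 of these genes are shown because they combine the motif with abundant transcripts that rose, with the CArG box in capitals. They lie at chr2:156775214-156775513, plus strand (Myl9), chr10:79988350-79988649, plus strand (Cnn2) and chr11:120348446-120348745, minus strand (Actg1).
Myl9: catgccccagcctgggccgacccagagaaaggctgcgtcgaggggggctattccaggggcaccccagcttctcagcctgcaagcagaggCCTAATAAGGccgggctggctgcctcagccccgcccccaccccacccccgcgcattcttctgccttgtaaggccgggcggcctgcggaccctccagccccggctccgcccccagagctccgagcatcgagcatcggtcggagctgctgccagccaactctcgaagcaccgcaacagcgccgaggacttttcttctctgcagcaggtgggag
Cnn2: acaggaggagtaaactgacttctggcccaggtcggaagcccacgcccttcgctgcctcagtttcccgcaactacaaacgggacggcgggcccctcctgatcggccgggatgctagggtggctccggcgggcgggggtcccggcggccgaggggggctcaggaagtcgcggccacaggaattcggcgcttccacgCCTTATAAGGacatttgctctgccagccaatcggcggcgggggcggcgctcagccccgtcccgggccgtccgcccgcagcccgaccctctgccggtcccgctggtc
Actg1: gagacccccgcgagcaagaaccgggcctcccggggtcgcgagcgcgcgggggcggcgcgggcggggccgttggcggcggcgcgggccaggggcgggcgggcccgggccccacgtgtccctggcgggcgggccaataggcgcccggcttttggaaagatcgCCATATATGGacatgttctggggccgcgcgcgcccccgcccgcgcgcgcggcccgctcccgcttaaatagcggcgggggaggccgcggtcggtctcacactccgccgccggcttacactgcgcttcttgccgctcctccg
Myl9, the regulatory myosin light chain, rose from 259 ± 22.5 to 446 ± 36.8 RPKM, the calponin Cnn2 from 189.6 ± 11.1 to 238 ± 12.5 RPKM and cytoplasmic gamma-actin, Actg1, from 556 ± 28.6 to 805 ± 65.3 RPKM. The remaining gene was Srf itself (4.34 ± 1.05 and 6.05 ± 0.636 RPKM). Members without a CArG box in the window, among them Tpm1, Tpm2 and Acta2, also rose. A match is a description of the letters only, and whether serum response factor acted there was not tested.

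Interferon-responsive genes, which cells use against viruses, fell as a group: of 32 tested 0 rose and 30 fell, with a median of -1.31 against -0.46 for all genes. Since low genes fell in general, the members above the receptor signal count most. Of the 30 that fell, 17 had a day 0 mean above 12.51 RPKM, and all 17 of these were also lower on day 7 than in the low-background day 0 library. Among the 9 abundant members 8 fell and 0 rose, with a median of -0.92, and their median stayed below 0 under each rescaling. Ifit3, an RNA-binding effector, had 185, 310.1 and 230.0 RPKM at day 0 and 36.3, 51.5 and 51.0 RPKM on day 7. The day 0 libraries varied among themselves, but all lay above day 7, by -2.35 ± 0.27 (SE, adjusted p = 2.17e-06). Ifit1, its relative, had 75.0, 91.4 and 83.1 RPKM at day 0 and 16.8, 25.3 and 20.6 RPKM on day 7. Isg15, a ubiquitin-like modifier, had 32.9, 42.2 and 38.6 RPKM at day 0 and 5.82, 4.36 and 7.65 RPKM on day 7, and Ifi44 had 24.3, 32.6 and 31.3 RPKM at day 0 and 3.75, 5.77 and 4.30 RPKM on day 7. None of these groups overlapped, and the low-background library stood with day 0 at 362, 97.6, 32.8 and 22.3 RPKM. The 2 tested members that did not pass were Ifi27l1 (61.8 ± 6.77 and 53.2 ± 5.89 RPKM) and Ifi35 (7.19 ± 0.826 and 6.24 ± 0.755 RPKM).

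Many promoters of this group hold the same motif. The interferon-stimulated response element was searched as TTTCNNTTTC on both strands (so also GAAANNGAAA). It was found in 13 of 23 members with a RefSeq promoter (56.5%), against 3.99% of all genes and 0 of the 20 contractile and cytoskeletal genes. The windows of 4 members with more than 1 match are shown, with the matches in capitals, because these genes were among the clear falls. They lie at chr4:156200769-156201068, minus strand (Isg15), chr19:34640639-34640938, plus strand (Ifit1), chr19:34583279-34583578, plus strand (Ifit3) and chr8:71537423-71537722, minus strand (Bst2), in GRCm38.p6.
Isg15: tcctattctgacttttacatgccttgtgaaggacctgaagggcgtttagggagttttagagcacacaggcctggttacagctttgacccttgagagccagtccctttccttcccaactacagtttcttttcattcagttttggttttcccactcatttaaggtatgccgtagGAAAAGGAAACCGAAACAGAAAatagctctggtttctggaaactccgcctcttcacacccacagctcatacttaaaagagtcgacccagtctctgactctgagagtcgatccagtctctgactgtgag
Ifit1: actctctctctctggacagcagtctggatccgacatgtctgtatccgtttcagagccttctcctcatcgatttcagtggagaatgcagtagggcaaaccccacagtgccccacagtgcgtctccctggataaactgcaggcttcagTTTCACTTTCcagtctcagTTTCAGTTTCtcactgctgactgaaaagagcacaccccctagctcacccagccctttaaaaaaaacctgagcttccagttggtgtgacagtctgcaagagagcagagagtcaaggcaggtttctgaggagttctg
Ifit3: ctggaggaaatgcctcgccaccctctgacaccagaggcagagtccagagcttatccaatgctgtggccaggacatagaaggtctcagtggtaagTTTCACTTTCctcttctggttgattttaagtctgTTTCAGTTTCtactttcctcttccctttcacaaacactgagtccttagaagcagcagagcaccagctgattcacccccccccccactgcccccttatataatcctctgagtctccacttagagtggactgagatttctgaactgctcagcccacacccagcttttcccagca
Bst2: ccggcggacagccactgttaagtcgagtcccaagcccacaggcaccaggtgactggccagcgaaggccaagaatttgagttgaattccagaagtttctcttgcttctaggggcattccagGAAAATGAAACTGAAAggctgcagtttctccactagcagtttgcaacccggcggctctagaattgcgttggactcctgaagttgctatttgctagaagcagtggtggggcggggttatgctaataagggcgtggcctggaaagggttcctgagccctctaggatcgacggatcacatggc
Bst2 (tetherin), which holds budding virus at the membrane, fell from 94.5 ± 14.9 to 29.8 ± 7.20 RPKM. Isg15 has 3 matches and the other windows 2 each, and those of Isg15 and of Bst2 overlap each other. Members without these letters in the window also fell.

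Of 17 MHC class I antigen presentation genes 2 rose and 9 fell, a share of falls near that of all genes, and after background subtraction 6 rose and 3 fell. Of the 8 abundant members 5 fell and 2 rose, with a median of -0.42 that came to -0.01 with median-ratio rescaling. B2m, the light chain of class I molecules, had 261, 228 and 260.1 RPKM at day 0 and 144, 156 and 160.3 RPKM on day 7. H2-T23, a nonclassical heavy chain, had 53.9, 61.3 and 59.5 RPKM at day 0 and 33.0, 24.2 and 25.8 RPKM on day 7. Both were lower in each day 7 library, by -0.70 ± 0.14 (SE, adjusted p = 0.000204) and -1.06 ± 0.12 (SE, adjusted p = 1.16e-06). The classical genes H2-D1 (79.4 ± 6.76 to 49.3 ± 6.70 RPKM) and H2-K1 (33.2 ± 1.40 to 24.1 ± 5.10 RPKM) also fell, though reads of class I genes may be shared. With median-ratio rescaling B2m (adjusted p = 0.13), H2-D1 (0.178) and H2-K1 (0.822) no longer passed. The members that rose, Canx and Calr, encode general chaperones of the endoplasmic reticulum, and Canx lost its call on leaving out any 1 of 5 libraries and Calr any 1 of 4.

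Secreted immune mediators shifted in opposite ways. Il33, an alarmin cytokine held in the nucleus, had 1.48, 1.29 and 1.21 RPKM at day 0 and 65.5, 78.4 and 54.7 RPKM on day 7. It was higher by 4.84 ± 0.17 (SE, adjusted p = 4.51e-15), and reached 219 ± 22.8 RPKM on day 15. Its receptor Il1rl1 (ST2) had 18.4, 19.95 and 19.1 RPKM at day 0 and 37.3, 40.6 and 33.5 RPKM on day 7. It rose by 0.92 ± 0.12 (SE, adjusted p = 8.29e-06), while the coreceptor Il1rap fell from 11.4 ± 0.708 to 2.92 ± 0.492 RPKM, a value below 12.51 RPKM at both times. Il1rn, the antagonist of the interleukin-1 receptor, had 98.1, 103 and 114.2 RPKM at day 0 and 13.9, 14.8 and 10.8 RPKM on day 7. It fell by -2.91 ± 0.18 (SE, adjusted p = 6.84e-11). The low-background library held 20.6 RPKM, and the 3 treated day 0 libraries had 23.8 ± 2.78 RPKM. Cxcl12, the chemokine by which stromal cells hold blood stem cells in marrow, had 946, 926 and 957 RPKM at day 0 and 369.9, 356 and 379 RPKM on day 7. It fell by -1.35 ± 0.11 (SE, adjusted p = 6.94e-09), and fell further by day 15 to 113 ± 4.46 RPKM. Against the low-background library its difference was -0.41, and the 3 treated day 0 libraries had 477 ± 24.1 RPKM. The sum of the 10 marrow stromal markers, mostly Cxcl12, went from 1207 to 1218 RPKM at day 0 to 604.9 to 636.8 RPKM on day 7, and the low-background library had 690.8 RPKM. Complement protease genes C1s (105 ± 8.34 to 50.7 ± 5.32 RPKM) and C1ra (63.8 ± 1.74 to 32.8 ± 2.26 RPKM) fell.

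The largest falls included 2 granule protease genes. Gzme, a granzyme of cytotoxic lymphocytes, had 172, 158 and 153 RPKM at day 0 and 10.3, 6.66 and 7.19 RPKM on day 7. Mcpt8, a basophil and mast cell protease, had 50.2, 59.6 and 65.2 RPKM at day 0 and 3.15, 4.07 and 3.14 RPKM on day 7. Both were clearly separate, by -4.18 ± 0.31 (SE, adjusted p = 7.22e-09) and -3.73 ± 0.37 (SE, adjusted p = 3.61e-07). The low-background day 0 library held even more, 314 and 179 RPKM. Gzmd, the neighbour of Gzme in the granzyme cluster and close to it in sequence, fell from 10.6 ± 1.17 to 0.752 ± 0.401 RPKM. Of 18 granzyme and mast cell protease genes 17 fell, but only Gzme and Mcpt8 exceeded 12.51 RPKM at day 0. Of the markers of cytotoxic lymphocytes and mast cells, Cma1 had 7.35 ± 2.16 and 0.243 ± 0.200 RPKM at day 0 and day 7, Fcer1a 7.03 ± 1.41 and 0.793 ± 0.836 RPKM, Klrb1c 4.94 ± 1.199 and 0.554 ± 0.266 RPKM and Kit 3.13 ± 0.877 and 2.43 ± 0.396 RPKM. Cma1, Fcer1a and Klrb1c fell, all from below 12.51 RPKM, though against the low-background library Fcer1a and Klrb1c did not pass. Prf1 was at 0.608 ± 0.524 and 0.191 ± 0.151 RPKM and Cpa3 at 1.11 ± 0.793 and 0.0893 ± 0.0880 RPKM. The 10 markers of these cells summed to 24.2 to 31.9 RPKM at day 0 and 3.98 to 6.82 RPKM on day 7, and to 9.27 RPKM in the low-background library. Their part in the falls of Gzme and Mcpt8 was not tested.

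Other large falls came from multi-copy families whose reads cannot be assigned to 1 gene. All 17 Mup genes tested (major urinary proteins) and all 15 Speer or Srsx genes fell, from group means of up to 44.6 and 133 RPKM. In the low-background day 0 library their highest values were 6.76 and 18.1 RPKM. They thus moved with the receptor signal, and how far it accounts for their fall was not tested. Agt (angiotensinogen) had 24.3, 22.5 and 23.4 RPKM at day 0 and 1.07, 0.775 and 1.48 RPKM on day 7. Dio3, which inactivates thyroid hormone, had 19.1, 24.3 and 27.2 RPKM at day 0 and 1.70, 1.07 and 1.00 RPKM on day 7. These single-copy genes were separate by -3.54 ± 0.16 (SE, adjusted p = 4.57e-13) and -3.44 ± 0.14 (SE, adjusted p = 4.37e-14), with 10.2 and 26.2 RPKM in the low-background library.

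The opposed deiodinases exchanged places. Dio2, which activates thyroid hormone, had 3.87, 3.79 and 3.81 RPKM at day 0 and 27.5, 22.8 and 25.1 RPKM on day 7. It rose by 2.43 ± 0.15 (SE, adjusted p = 7.77e-11), so that Dio2 was below Dio3 at day 0 and above it on day 7 in each library. Hsd11b1, which regenerates active glucocorticoid, had 23.9, 27.8 and 25.3 RPKM at day 0 and 3.74, 5.36 and 6.69 RPKM on day 7. It fell by -2.12 ± 0.14 (SE, adjusted p = 3.19e-10). Ch25h, the cholesterol 25-hydroxylase, rose from 1.08 ± 0.122 to 10.9 ± 0.646 RPKM. Aldh1a2, an enzyme of retinoic acid synthesis, rose from 75.2 ± 1.42 to 300.4 ± 16.2 RPKM and was named after its values were seen.

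Adipocyte genes were lower on day 7. Of 26 tested 1 rose and 18 fell, and of the 18 abundant ones 0 rose and 13 fell, with a median of -0.77. The median of these abundant members was -0.11 with quantile normalization and 0.00 after background subtraction. The abundance here comes in part from adipogenic libraries, and 8 of the 18 falling genes exceeded 12.51 RPKM at day 0; all 8 of them were also below the low-background library on day 7. Lpl, the lipoprotein lipase, had 231, 239 and 236 RPKM at day 0 and 87.7, 82.2 and 81.6 RPKM on day 7. Cebpa, an adipogenic transcription factor, had 65.0, 85.8 and 66.2 RPKM at day 0 and 19.8, 16.6 and 25.7 RPKM on day 7. Both fell without overlap, by -1.48 ± 0.08 (SE, adjusted p = 6.7e-12) and -1.77 ± 0.16 (SE, adjusted p = 2.95e-08). Plin4, a lipid droplet coat protein, had 72.2, 69.8 and 66.0 RPKM at day 0 and 15.2, 12.6 and 11.4 RPKM on day 7. The fatty acid carrier Fabp4 fell from 51.0 ± 10.4 to 16.2 ± 3.68 RPKM, against 22530.0 ± 902 RPKM in adipogenic cells, and Pparg from 32.0 ± 2.74 to 19.1 ± 3.08 RPKM. Cebpd was the member that rose (5.34 ± 0.135 to 9.55 ± 0.706 RPKM), and against the low-background library it was lower by -0.20 log2. The 8 adipocyte markers summed to 161.3 to 207.4 RPKM at day 0 and 66.7 to 71.1 RPKM on day 7.

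**Figure D3:**
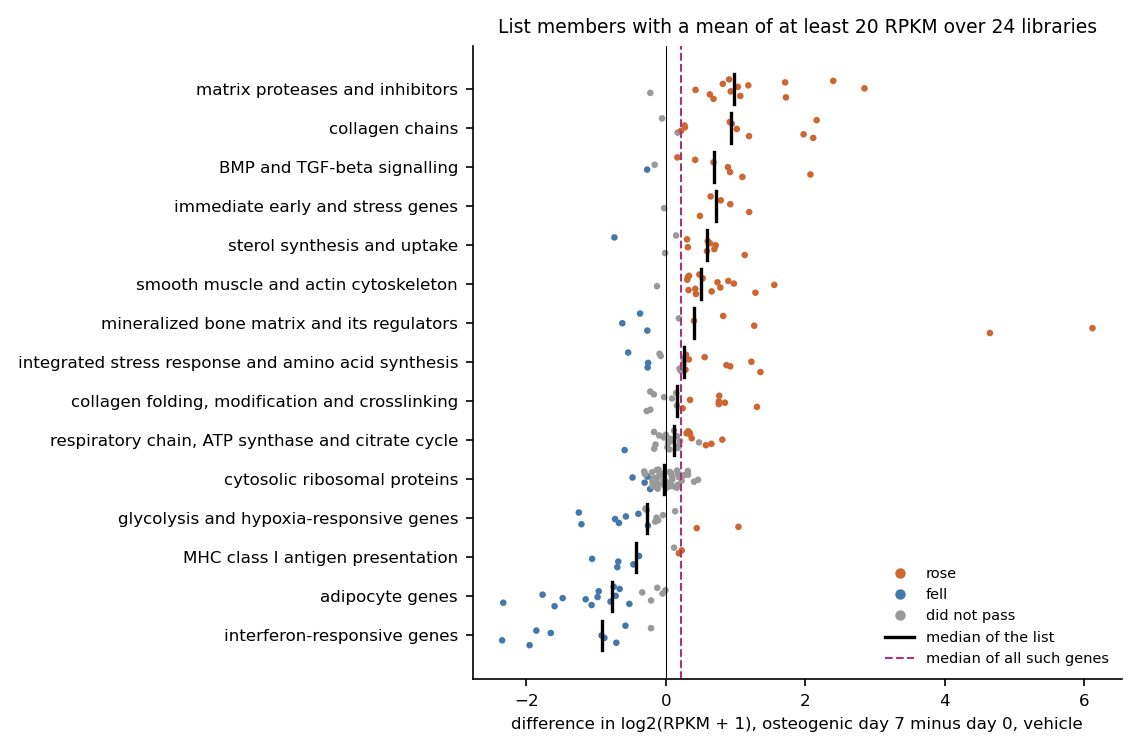
Difference in log2(RPKM + 1) between osteogenic day 7 and day 0 (x axis) for each abundant member of 15 gene lists, with black bars at list medians and a dashed line at 0.21, the median of all 3503 abundant genes. Proteases and collagens lie mostly to the right of the dashed line, ribosomal proteins around 0, and adipocyte and interferon-responsive genes to the left.

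Of 25 sterol synthesis and uptake genes 11 rose and 4 fell, and of the 11 abundant ones 8 rose and 1 fell, with a median of 0.59. Hsd17b7 rose from 20.1 ± 0.804 to 39.7 ± 4.76 RPKM and Cyp51 from 67.7 ± 1.13 to 112 ± 5.63 RPKM. Insig1, which restrains the pathway, had 197, 208 and 192 RPKM at day 0 and 122, 116 and 118 RPKM on day 7. It fell by -0.74 ± 0.09 (SE, adjusted p = 1.94e-06). The low-background library had 102 RPKM, below day 7, and the 3 treated day 0 libraries had 102 ± 3.00 RPKM.

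Of 27 glycolytic and hypoxia-responsive genes 2 rose and 14 fell. Among the abundant ones 7 of 16 fell and 2 rose, with a median of -0.27 that became 0.15 with median-ratio rescaling. Pfkl, a phosphofructokinase, had 27.8, 26.5 and 27.1 RPKM at day 0 and 10.8, 10.8 and 11.9 RPKM on day 7. Pdk1, which keeps pyruvate from the mitochondria, had 26.7, 27.2 and 24.6 RPKM at day 0 and 10.99, 9.21 and 11.8 RPKM on day 7. Both fell, by -1.21 ± 0.09 (SE, adjusted p = 1.01e-09) and -1.23 ± 0.15 (SE, adjusted p = 1.93e-06), and the mitophagy receptor Bnip3 fell from 27.9 ± 1.39 to 11.6 ± 3.87 RPKM. Hexokinase Hk2 went the other way, from 12.1 ± 0.793 to 26.2 ± 4.01 RPKM, as did Hk1, which was lower than the low-background library (-0.47 log2). Of 32 respiratory chain and citrate cycle genes 9 rose and 1 fell, and of the 29 abundant ones 8 rose and 1 fell (median 0.12). Cytochrome c, Cycs, rose from 45.2 ± 6.42 to 80.5 ± 15.2 RPKM. The abundant member that fell, Ndufa1, had overlapping groups (36.5, 48.5 and 31.0 RPKM at day 0 and 28.3, 14.5 and 37.4 RPKM on day 7) and did not pass without replicate 2 of either group.

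Of 31 antioxidant and detoxifying genes 9 rose and 11 fell, and of the 17 abundant ones 7 rose and 5 fell. With median-ratio rescaling 14 rose and 6 fell over all members, and after background subtraction 17 rose and 5 fell. Txnip, an inhibitor of thioredoxin that follows glucose supply, had 51.3, 61.1 and 55.0 RPKM at day 0 and 10.5, 10.6 and 10.0 RPKM on day 7. It fell by -2.31 ± 0.13 (SE, adjusted p = 1.6e-11), and the haem oxygenase Hmox1 fell from 50.0 ± 2.52 to 19.7 ± 2.27 RPKM. Gpx7, a peroxidase of the endoplasmic reticulum, rose from 8.71 ± 1.41 to 17.97 ± 3.12 RPKM. The anion exchanger Slc26a7 had 42.7, 38.9 and 33.1 RPKM at day 0 and 6.09, 3.32 and 3.62 RPKM on day 7. It fell by -2.91 ± 0.24 (SE, adjusted p = 6.51e-09), and the taurine transporter Slc6a6 fell from 25.5 ± 1.38 to 11.1 ± 0.465 RPKM.

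Of 31 genes of the integrated stress response and amino acid synthesis 12 rose and 5 fell. Among the 18 abundant ones 8 rose and 3 fell, a share of rises close to the 43.8% of all abundant genes. Beside Atf4, the stress protein Nupr1 rose from 25.8 ± 5.58 to 61.0 ± 8.09 RPKM, the mitochondrial folate enzyme Mthfd2 from 8.96 ± 0.744 to 17.96 ± 2.08 RPKM and the proline synthesis enzyme Aldh18a1 from 17.9 ± 2.26 to 33.5 ± 3.25 RPKM. Of the 22 immediate early genes 10 rose and 0 fell, and 5 of 6 abundant ones rose. Jun had 15.6, 17.5 and 13.4 RPKM at day 0 and 31.0, 39.9 and 39.8 RPKM on day 7. Klf6 had 89.3, 83.0 and 79.6 RPKM at day 0 and 155, 151 and 175 RPKM on day 7. The AP-1 component Jun and the zinc finger gene Klf6 were each higher in each day 7 library, by 1.20 ± 0.12 (SE, adjusted p = 1.15e-07) and 0.93 ± 0.10 (SE, adjusted p = 2.95e-07).

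Most proliferation genes did not pass the test: of 48 cell cycle genes 10 rose, 4 fell and 34 did not pass. Among the 9 abundant members 5 rose and 1 fell, with a median of 0.31 against 0.21 for all abundant genes. Mki67 had 19.6, 17.1 and 17.7 RPKM at day 0 and 14.4, 15.5 and 16.2 RPKM on day 7, and Top2a had 41.1, 37.7 and 41.3 RPKM at day 0 and 45.1, 48.9 and 42.1 RPKM on day 7. Neither difference passed the test (adjusted p = 0.156 and 0.102). The 3 treated day 0 libraries had less of both, 10.4 ± 1.8 RPKM of Mki67 and 23.2 ± 0.674 RPKM of Top2a. Against the low-background library (8.39 and 23.2 RPKM) the differences were 0.80 and 0.93. The D cyclins Ccnd1 (135 ± 7.94 to 226 ± 28.8 RPKM) and Ccnd2 (71.0 ± 2.69 to 126 ± 5.02 RPKM) rose, and so did the inhibitor Cdkn2b (49.3 ± 4.57 to 104 ± 6.66 RPKM) and the antiproliferative Btg2 (20.1 ± 0.338 to 40.2 ± 2.00 RPKM). Most cytosolic ribosomal protein genes did not pass either, with 4 falls and 0 rises among 45, though under median-ratio rescaling 18 of 43 abundant members rose. The noncoding RNAs Malat1 (6217 ± 798 to 3930.0 ± 327 RPKM), Rpph1 (10480.0 ± 989 to 6332 ± 322 RPKM) and Gas5 (152 ± 14.7 to 94.9 ± 4.11 RPKM) fell, and none of them passed with median-ratio rescaling.

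Of 32 integrin, laminin and adhesion genes 10 rose and 11 fell, and of the 11 abundant ones 7 rose and 1 fell. With median-ratio rescaling 16 rose and 6 fell over all members, and after background subtraction 21 rose and 1 fell. Cdh11, the osteoblast cadherin, had 283, 265 and 259 RPKM at day 0 and 585, 528 and 544 RPKM on day 7, and Gja1 (connexin 43), which couples bone cells, had 446, 467 and 436 RPKM at day 0 and 983, 956 and 931 RPKM on day 7. Every day 7 library was above every day 0 library, by 1.04 ± 0.07 (SE, adjusted p = 2.13e-10) and 1.09 ± 0.15 (SE, adjusted p = 1.02e-05). Gja1 reached 2129 ± 628 RPKM on day 15, with wide spread. Ncam1 rose from 21.4 ± 2.64 to 44.2 ± 6.83 RPKM and the laminin chain Lamb1 from 70.3 ± 4.02 to 116 ± 3.54 RPKM, though the low-background library had 134 RPKM. Of 34 guidance, ephrin and Notch genes 11 rose and 10 fell, and of the 5 abundant ones 4 rose and 0 fell. With median-ratio rescaling 17 rose and 8 fell over all members, and after background subtraction 22 rose and 2 fell. Sema3e fell from 13.9 ± 0.920 to 3.92 ± 0.276 RPKM while Sema3c (14.2 ± 1.17 to 33.9 ± 2.87 RPKM), the ephrin Efnb2 (13.0 ± 1.09 to 29.3 ± 3.08 RPKM) and the Notch target Hes1 (6.53 ± 0.821 to 14.9 ± 1.06 RPKM) rose.

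Other large rises fell outside these groups. D0H4S114, an older symbol of Nrep, a small protein of regenerating nerve and of fibroblasts, had 32.2, 34.8 and 38.5 RPKM at day 0 and 304, 291 and 290.2 RPKM on day 7. Arl4c, a small GTPase that remodels actin, had 18.4, 18.3 and 17.6 RPKM at day 0 and 99.5, 105 and 115 RPKM on day 7. Car3, a carbonic anhydrase of muscle and fat, had 4.07, 5.62 and 7.58 RPKM at day 0 and 42.3, 48.3 and 33.5 RPKM on day 7. All 3 were separate, by 3.04 ± 0.12 (SE, adjusted p = 2.29e-14), 2.49 ± 0.12 (SE, adjusted p = 1.89e-12) and 2.67 ± 0.15 (SE, adjusted p = 2.1e-11). In adipogenic cells Car3 reached 238 ± 8.397 RPKM, while D0H4S114 stood at 2.27 ± 0.486 and Arl4c at 3.79 ± 1.01 RPKM.

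**Figure D4:**
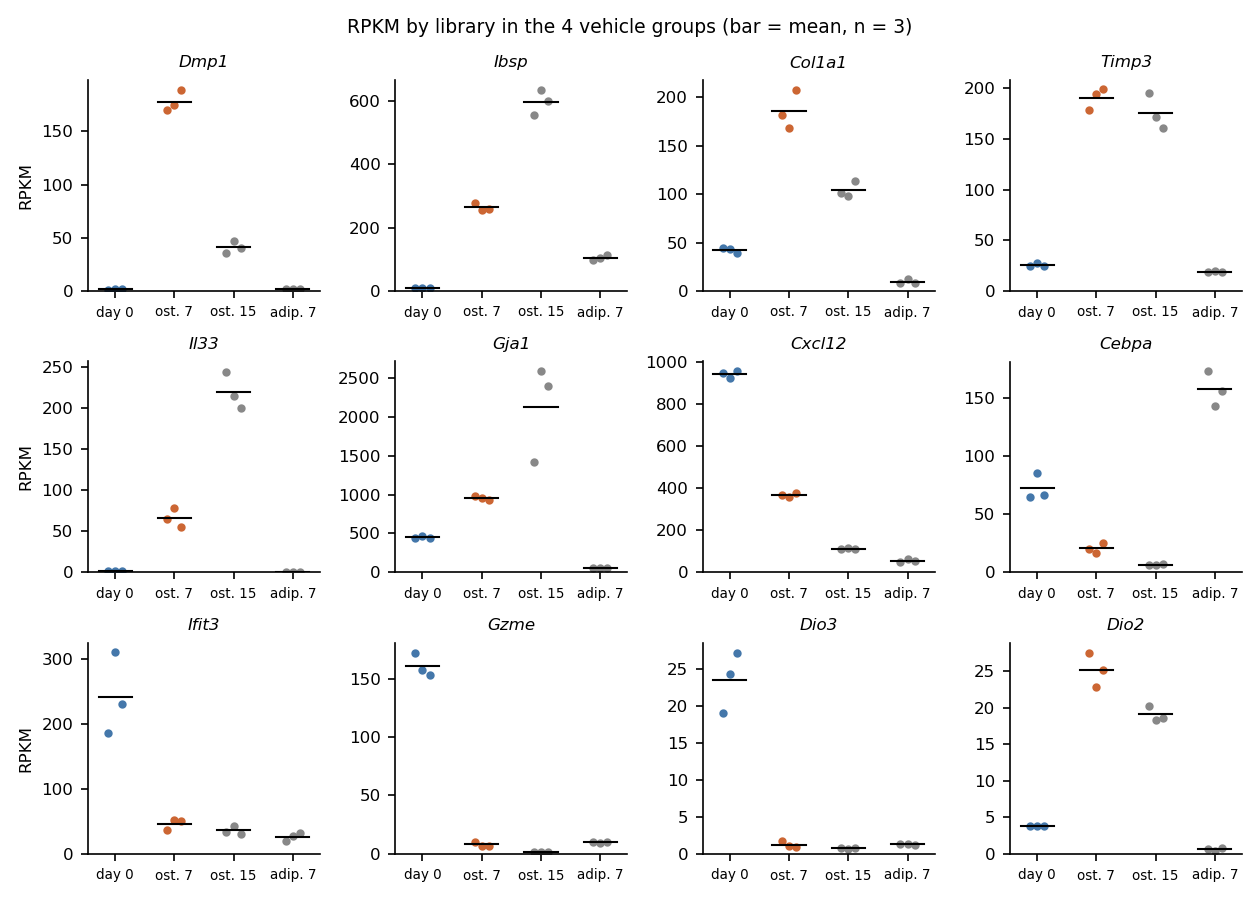
RPKM (linear axes from 0) of 12 genes in each library of the 4 vehicle groups, day 0, osteogenic day 7, osteogenic day 15 and adipogenic day 7, with a bar at the mean of 3. Dmp1 and Col1a1 are highest on osteogenic day 7, Ibsp and Il33 on day 15, and Cxcl12, Gzme and Ifit3 at day 0.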

How the data were processed

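The values are RPKM per transcript, deposited by the authors. Per the submitters' processing notes the reads were aligned with TopHat to mm9; the quantification tool, annotation and filters are not given in the sources used here. Per the labels' protocols, total RNA was depleted of ribosomal RNA and made into directional libraries. From these values, transcripts were summed by symbol (25385 genes after leaving out 25 symbols turned into dates). The 21097 genes that reached 1 RPKM in 3 or more of the 24 libraries entered a limma model (version 3.58.1, R 4.3.3) of log2(RPKM + 1) over 8 groups, with trended, robust empirical Bayes variances and Benjamini-Hochberg adjustment. The difference between the treated and vehicle comparisons was an interaction contrast of this model.

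RPKM keeps no read counts, so depth was estimated from the step between low values of receptor genes of 900 to 1000 bases. In the 6 libraries 98.0 to 100% of 150 such values were whole reads to a tolerance of 0.1, and 3 reads on 1 kilobase correspond to 0.075 to 0.423 RPKM. On simulated data the test recovered 93% of 100 genes changed 2-fold and 65% of those changed 1.5-fold, with 12 false calls among 21097 genes. How far these figures hold for the measured libraries, with the receptor signal and low depth of day 0, was not tested.

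Members, the 33 gene lists and tests were chosen with earlier results of these data known. Named genes are the 15 strongest rises and 15 strongest falls past the test that reached 20 RPKM in the higher group, above the 99th percentile of receptor genes, without overlap and with the same direction against the low-background day 0 library, leaving out predicted, clone, small RNA, histone and receptor genes. The rule adds up to 4 called members per list that reached 10 RPKM in the higher group, and 16 fixed genes; a few genes it names are not reported here. Alternatives were a pseudocount of 0.1, other filters, median-ratio and quantile scaling, a replicate term, only the 6 libraries, background subtraction, other day 0 libraries, the largest transcript and leaving out each library. Promoter windows are RefSeq sequences on GRCm38.p6, another build than mm9, and were matched by symbol. Python 3.11.15, pandas 2.3.3, numpy 2.4.6 and matplotlib 3.10.9 were used.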

Additional observations from a re-analysis of the deposited data

Results flagged for a closer look

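The same osteogenic contrast was available in libraries treated with 1,25(OH)2D3, and for 38 of the 175 genes named here that were tested the treated and vehicle differences were unequal by the interaction contrast of limma (adjusted p = 1.62e-06 to 0.0499 over all tested genes, 539 of which passed). Values below are the treated minus the vehicle difference in log2. The treated day 0 group holds 1 library with a low receptor median (0.457 RPKM) beside 2 with 4.45 and 3.38 RPKM, and the part of this in each value was not tested.

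Rises that were larger in the treated libraries were those of Dio2 (2.08), Alpl (1.56), Aspn (1.38), Lrp4 (1.00), Il1rl1 (0.96), D0H4S114 (0.88), Thbs2 (0.64), Ctgf (0.59), Wisp1 (0.87), Gja1 (0.83), Inhba (0.81) and Tmem2 (0.47). Dio2 went from 2.43 in vehicle to 4.52 in treated libraries and Alpl from 1.57 to 3.13. Rises that were smaller were those of Mmp13 (-1.25), Nrp2 (-0.92), Col3a1 (-0.85), 9930013L23Rik (-0.72), Col8a1 (-0.69), Timp3 (-0.67), Htra1 (-0.59) and Lamb1 (-0.50).

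Falls that were smaller in the treated libraries were those of Slc26a7 (1.36), Il1rn (1.10), Sfrp1 (0.90), Postn (0.89), Cxcl12 (0.87), Dio3 (0.79), Hgf (0.77), Fgfrl1 (0.73), Plin4 (0.64), Slc6a6 (0.61) and Insig1 (0.50). Falls that were larger were those of Sema3e (-0.64), Smoc2 (-0.57) and Thbs1 (-0.47). Omd changed sign, from -0.37 in vehicle to 1.92 in treated libraries (2.28). Col12a1 (0.69), Lox (0.67) and Pdgfrb (0.66) did not pass the test among vehicle libraries and rose among treated ones.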

How the results depend on the processing

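The count of rises (2874) became 6103 with median-ratio rescaling, 5537 with quantile normalization, 8715 after background subtraction, 1795 with the low-background library alone as day 0 and 1493 in a fit of abundant genes alone. The count of falls (10636) became 2768 with a filter at 5 RPKM, 3813 with quantile normalization, 1451 after background subtraction, 5231 in the treated libraries, 897 against the low-background library alone and 394 in a fit of abundant genes alone. Fewer genes are tested under the filters and fewer samples used with the lone library, and otherwise the cause was not tested. Leaving out 1 library gave 2498 to 2696 rises and 9902 to 10173 falls.

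Some named genes changed sign. With median-ratio rescaling they were Spp1 (0.17), Omd (0.05), Pdgfrb (0.30), Col12a1 (0.37), Lox (0.41), P4ha1 (0.15), Thbs1 (0.18), Tgfbr1 (0.15), Myh9 (0.30), Ifi27l1 (0.21), Ifi35 (0.19), Mki67 (0.18), Fn1 (0.26), Mepe (0.17) and Kit (0.06). With quantile normalization they were Pdgfra (-0.03), Col4a1 (-0.07), Myh11 (0.18), Ifi35 (0.11), Mepe (0.89) and Kit (0.69), while Rpph1 (0.00) and Rn7sk (0.00) came to no difference. After background subtraction they were Col12a1 (0.02), Ifi35 (0.84), Mki67 (0.11) and Kit (1.62), and in the treated libraries Omd (1.92), Pdgfrb (0.53), Col12a1 (0.64), Lox (0.65), Fn1 (0.33), Kit (0.13) and Ly6a (0.63). Against the low-background library they were Omd (2.54), Pdgfrb (0.16), Col4a1 (-0.03), Col12a1 (0.94), Lox (0.87), Ogn (0.17), 9930013L23Rik (-1.17), Postn (0.18), Mmp13 (-2.18), Myh11 (0.18), Myocd (0.01), Cebpd (-0.20), Insig1 (0.22), Hk1 (-0.47), Mki67 (0.80), Lamb1 (-0.20), Mepe (0.82), Ly6a (1.35) and Klrb1c (0.41). With the largest transcript Kit came to 0.00. Against that library the differences of Ptgs2 (0.36), Cdkn2b (0.23) and Sema3c (0.37) also no longer passed. Without 1 library Lox ranged from -0.10 to 0.03 (0.01 without replicate 1 of either group) and Mepe from -0.30 to 0.16, and 10 named genes lost their call, Spp1, Omd, Pdgfra, Tgfbr1, Srf, H2-K1, Canx, Calr, Cpa3 and Ndufa1.

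Same-numbered libraries had correlations of 0.07, -0.40 and -0.20 in their deviations from group means, and differently numbered ones had -0.20 to 0.32. Deviations from a mean of 3 constrain each other, so these values cannot show whether replicate numbers pair the libraries. With the replicate block 2854 genes rose and 10598 fell, and among named genes only the call of Runx2 changed (adjusted p = 0.0498). Low depth and receptor signal at day 0 limit what can be read below about 12.51 RPKM there.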

Other observations

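Several abundant matrix genes not described above also rose, and were chosen here after their values were seen. Thbs2, a thrombospondin that limits vessel growth, rose from 429 ± 8.05 to 994 ± 28.3 RPKM. Fbn1, the main microfibril protein, rose from 62.8 ± 3.21 to 170.0 ± 6.33 RPKM, and the large proteoglycan Vcan from 109.6 ± 9.72 to 196 ± 15.2 RPKM. The CCN genes Ctgf (142 ± 10.2 to 294 ± 41.8 RPKM) and Cyr61 (61.8 ± 4.02 to 165 ± 15.3 RPKM) rose with Wisp1. Fibronectin, Fn1, did not pass, at 249.6 ± 21.7 and 222 ± 15.3 RPKM, and its difference of -0.17 was 0.26 with median-ratio rescaling and 0.33 in the treated libraries. The membrane collagenase Mmp14 rose from 124 ± 5.50 to 262 ± 12.9 RPKM, the tissue plasminogen activator Plat from 44.1 ± 4.28 to 102 ± 11.2 RPKM and cathepsin K, Ctsk, best known from osteoclasts, from 54.3 ± 1.41 to 103 ± 10.5 RPKM. The guidance receptor Nrp2 rose from 63.1 ± 1.53 to 131 ± 9.25 RPKM in vehicle libraries, and the difference of 0.12 in treated libraries did not pass. Serpinh1, the collagen chaperone, rose from 336 ± 12.0 to 571 ± 41.4 RPKM.

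Among the day 0 vehicle and day 7 vehicle libraries the correlation of log2(RPKM + 1) over genes was 0.961 to 0.967 within day 0, 0.981 to 0.988 within day 7 and 0.871 to 0.909 between them. Rn7sk, the 7SK RNA, held 24.2 to 26.5% of the summed RPKM at day 0 and 19.4 to 22.3% on day 7.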
